A study of Mus musculus with 2 samples.

Results

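Of the 2202 annotated microRNA genes in the tables, 7 genes known from microglia and blood leukocytes were described in mouse cerebral cortex. They are Mir142, Mir142b, Mir146, Mir146b, Mir150, Mir155 and Mir223. They were chosen by name from what is known of them and not by a measured value, with earlier results of these data known. The tissue was left cerebral cortex, from adults of the strain labelled 5xFAD/CAST that were male and 8 to 10 months old, and RNA under 30 bases was sequenced from its total RNA. 5xFAD is a transgenic line that deposits amyloid, with its transgenes expressed in neurons from the Thy1 promoter, and CAST commonly stands for a wild-derived inbred strain. Whether the sampled animals carried the transgenes is not stated in the labels. There were 2 libraries, biological replicates 1 and 2 of 1 group, from separate tissue samples with the same donor identifier, and the labels do not state whether these came from separate animals. The SD over the 2 libraries may therefore be technical. Control mice were not analysed here.

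MicroRNAs are short RNAs that bind messenger RNAs mainly through their seed, bases 2 to 8 from the 5′ end, and lower the output of those messages. Of the genes described here, Mir142 is active throughout the blood-forming lineage, which includes microglia, Mir150 is abundant in mature lymphocytes, and Mir223 in neutrophils and other myeloid cells. Mir146 and Mir155 are switched on by Toll-like receptor and NF-kB signalling, the miR-146 pair as a brake on that signalling and miR-155 as an amplifier. Mir146 and Mir155 can also be induced in other cells, astrocytes among them for Mir146. The tissue was measured in bulk, so that fewer cells of a type and less RNA per cell cannot be told apart.

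The listed mature sequences show which of these arms share a seed and which can be told apart by reads. They are given 5′ to 3′ with the seed in capitals, from RefSeq (GRCm38.p6), first the miR-146 pair, then the arms of the overlapping Mir142 and Mir142b, then miR-155, miR-223 and miR-150.
miR-146a-5p: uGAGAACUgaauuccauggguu
miR-146b-5p: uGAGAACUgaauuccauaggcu
miR-142a-5p: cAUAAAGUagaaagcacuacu
miR-142a-3p: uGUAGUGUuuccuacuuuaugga
miR-142b: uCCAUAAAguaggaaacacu
miR-155-5p: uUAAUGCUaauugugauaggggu
miR-223-3p: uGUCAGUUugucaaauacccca
miR-150-3p: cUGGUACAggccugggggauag

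MiR-146a-5p and miR-146b-5p had the same seed and were identical at 20 of 22 bases. Counted from 1 at the 5′ end of miR-146a-5p, they differed by G18A and U21C, so that their first 17 bases were the same. Of the 12 mature arms listed for the 7 genes, these 2 shared a seed with each other and with no other of the 1738 mature mouse sequences searched, and the seed of each of the other 10 was found in no other. MiR-150-5p had no sequence in the source used, so its seed and its matches to other genes were not checked. The start of each listed arm, its first 18 bases, matched no other microRNA gene in the sense direction among 141767 GENCODE M21 transcripts. The genome outside transcripts was not searched. Counts were given per precursor gene, so reads of the 5p and 3p arms are added together.

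The 7 genes lay at 6 loci (mm10, GENCODE M21 annotation, positions counted from 1). Mir142 was annotated at chr11:87756864-87756927 on the plus strand, within an intron of Mir142hg, a long non-coding RNA, and Mir142b at chr11:87756841-87756955 on the minus strand, covering all 64 bases of Mir142. Mir146 was at chr11:43374397-43374461 on the minus strand, with no other annotated gene over it and Pttg1 as the nearest protein-coding gene, 45789 bases away. Mir146b was at chr19:46342762-46342870 on the plus strand, inside an intron of the transporter family gene Mfsd13a. Mir155 was at chr16:84714140-84714204 on the plus strand, in an exon of both transcripts of its host RNA, Mir155hg, that span it. Mir150 was at chr7:45121757-45121821 on the plus strand with no other annotated gene over it. Mir223 was at chrX:96242817-96242926 on the plus strand, in an exon of the non-coding gene F630028O10Rik. The protein-coding gene nearest to Mir223 was Vsig4, a complement receptor gene of macrophages, 4277 bases away on the other strand.

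Replicate 1 held 4929428 sense reads assigned to microRNA genes and replicate 2 held 4441328, out of 16403925 and 16991914 reads in all. Levels are counts scaled to a total of 1000000 assigned reads (CPM), and 1 read corresponds to 0.203 CPM in replicate 1 or 0.225 CPM in replicate 2. Between replicates 1 and 2, the share of unmapped reads went from 25.6% to 34.3% and that of reads mapping to several places from 38.5% to 33.0%. Detected genes are those with at least 10 reads in each library, 417 in all. Of the lists of microRNAs from the cortex's other cells, 9 of 11 neuronal genes, 4 of 4 astroglial genes and 3 of 3 oligodendrocyte genes were detected.

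The immune microRNAs were a small share of the cortical microRNA reads, and Mir150 and Mir146 made up most of it. The 7 genes took 9545 reads (0.194%, exact Clopper-Pearson 95% interval 0.190 to 0.198%) in replicate 1 and 9272 reads (0.209%, interval 0.205 to 0.213%) in replicate 2, or 0.201 ± 0.0107% (SD, n = 2). The share of assigned reads was 1.08-fold higher in replicate 2, beyond counting error. Assigned reads were 30.1% of all reads in replicate 1 and 26.1% in replicate 2. Out of all reads the direction was reversed, since replicate 2 had fewer reads of the 7 genes in a larger total. Mir150 and Mir146 stood between 596 and 1073 CPM in both libraries, Mir142 and Mir155 just above 100 CPM, Mir223 and Mir146b at about 10 CPM or below, and Mir142b had no read. Of the 7 genes, 6 were detected, all but Mir142b, with Mir146b at 10 reads in replicate 1 and so right at the minimum. Of these 6, 4 lay above the median level of all detected genes, which was 94.7 CPM. The intervals cover counting error only.

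**Figure D1:**
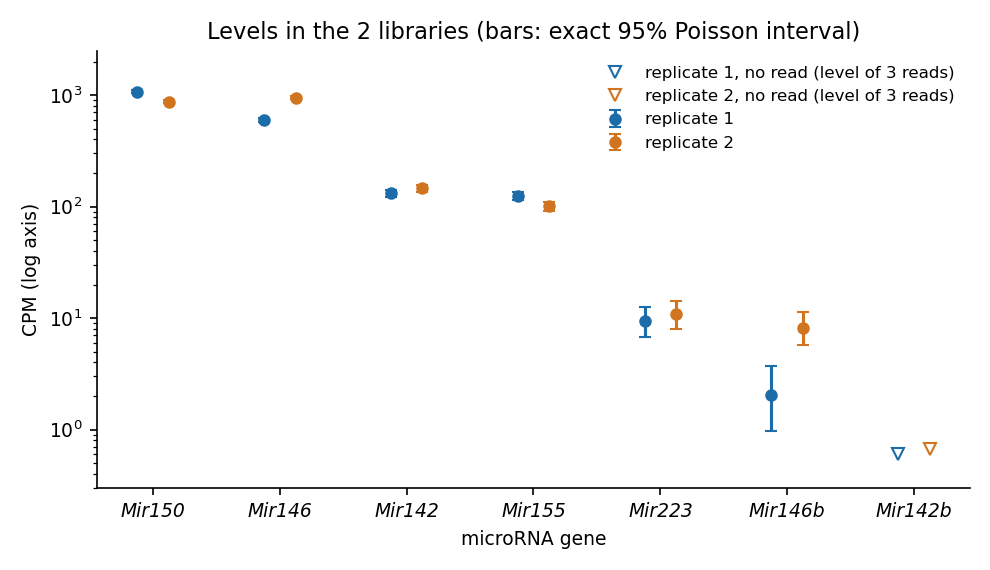
Level of each of the 7 genes in CPM (log axis) in replicate 1 (blue) and replicate 2 (orange), with exact 95% Poisson intervals; open triangles mark the level of 3 reads for Mir142b, which had none. Mir150 and Mir146 exchange places between the libraries, and the largest gap between the libraries is at Mir146b, at 2.03 and 8.11 CPM.

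Mir150, which is abundant in mature lymphocytes, had the highest mean. It had 5287 reads (1073 CPM, exact Poisson 95% interval 1044 to 1102) in replicate 1 and 3881 reads (874 CPM, interval 847 to 902) in replicate 2, a mean of 973 ± 141 CPM (SD, n = 2). By mean it ranked 97 among the 2202 genes and lay above 76.7% of the detected ones. Mir142, the lineage-wide blood cell microRNA, had nearly the same number of reads in both libraries, 649 and 646. These were 132 CPM (interval 122 to 142) and 145 CPM (134 to 157), with a mean of 139 ± 9.75 CPM, above 55.6% of detected genes. Mir223, the myeloid microRNA, had 46 and 48 reads, or 9.33 CPM (6.83 to 12.4) and 10.8 CPM (7.97 to 14.3), and lay above 22.5% of detected genes. The intervals of replicates 1 and 2 did not overlap for Mir150 and did overlap for Mir142 and for Mir223. Which cells of the bulk tissue the reads of these genes came from was not tested.

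Mir146, Mir146b and Mir155 were read together as the genes tied above to Toll-like receptor and NF-kB signalling, and Mir146 was the most abundant of these 3. It had 2939 reads (596 CPM, interval 575 to 618) in replicate 1 and 4215 reads (949 CPM, interval 921 to 978) in replicate 2, a mean of 773 ± 249 CPM. Its relative Mir146b, with the same seed, had 10 reads (2.03 CPM, interval 0.973 to 3.73) and 36 reads (8.11 CPM, interval 5.68 to 11.2). Both members of the pair were higher in replicate 2, with intervals that did not overlap between the libraries. Mir146 had 294 reads for each read of Mir146b in replicate 1 and 117 in replicate 2, so nearly all reads of the pair were assigned to the Mir146 locus. The counts add both arms of each precursor, so the number of these reads with the shared seed was not measured. Reads that ended within the first 17 bases could not have been told apart, and read lengths were not analysed here. Mir155 had 614 reads (125 CPM, interval 115 to 135) and 446 reads (100.4 CPM, interval 91.3 to 110.2), a mean of 112 ± 17.1 CPM, and its intervals did not overlap between the libraries.

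In the order of the mean levels, only Mir150 and Mir146 had ranges over the 2 libraries that overlapped. Mir150 had 1.80 reads for each read of Mir146 in replicate 1 and 0.921 in replicate 2, which puts Mir146 first there. Mir142 was above Mir155 in both libraries, 1.06-fold in replicate 1, where their counting intervals overlapped, and 1.45-fold in replicate 2. Mir155 was 13.3-fold and 9.29-fold above Mir223 in replicates 1 and 2, and Mir223 was 4.60-fold and 1.33-fold above Mir146b, the latter with overlapping counting intervals. Per base of annotated precursor the order of the mean levels was the same, with 15.0 CPM per base for Mir150, 11.9 for Mir146, 2.16 for Mir142, 1.73 for Mir155, 0.0915 for Mir223 and 0.0465 for Mir146b. With 2 libraries, no test between 2 genes was made.

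The make-up of the immune microRNA reads differed between the libraries by more than their sum did. Mir150 took 55.4% of the reads of the 7 genes in replicate 1 (exact Clopper-Pearson 95% interval 54.4 to 56.4%) and 41.9% in replicate 2 (40.9 to 42.9%). Mir146 took 30.8% (29.9 to 31.7%) and 45.5% (44.4 to 46.5%). The share of Mir142 was 6.80% and 6.97% and that of Mir155 was 6.43% and 4.81%. Mir223 and Mir146b together stayed under 1% in each library. The shares of Mir150 and Mir146 thus moved in opposite directions by more than counting error, and those of Mir142 stayed within each other's intervals, 6.30 to 7.32% and 6.46 to 7.50%.

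**Figure D2:**
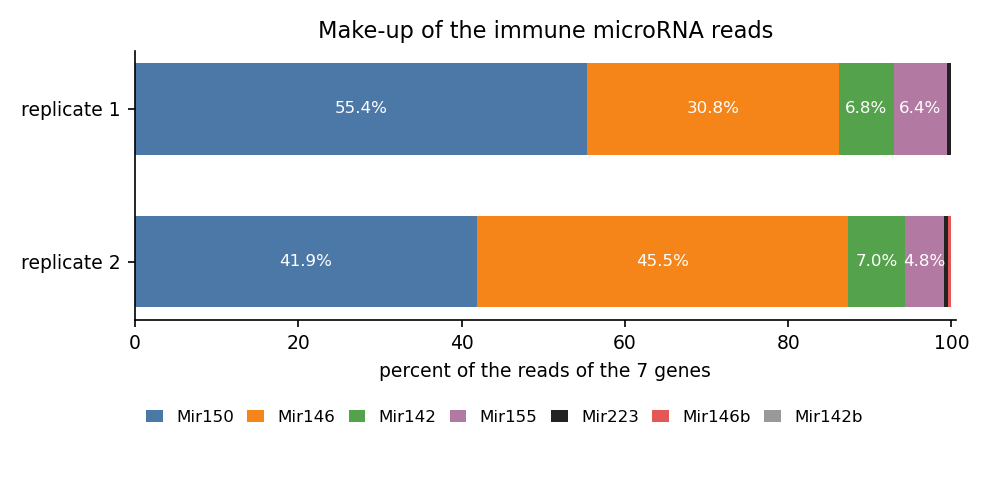
Percent of the reads of the 7 genes taken by each gene, with 1 bar for each library. Mir150 makes up 55.4% of the bar of replicate 1 and Mir146 45.5% of the bar of replicate 2; Mir142b has no read and is not visible.

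Whether a gene differed between the libraries was tested by an exact binomial test (two-sided) on its 2 counts, given the library totals. P-values were adjusted by Benjamini-Hochberg over all 417 detected genes, and the threshold was 0.05. The test sets one library against the other and says nothing of conditions. Its p-values cover counting error only and take no account of the spread between samples. Of the 6 detected immune microRNAs, 4 passed. Over all detected genes 59.2% passed, so the count among the immune microRNAs is near the background. Mir146 and Mir146b were higher in replicate 2, as were 24.7% of all detected genes, and Mir150 and Mir155 were lower, as were 34.5%. Only Mir146b among them was at least 2-fold apart, against 11.3% of all detected genes.

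Mir146 was 1.59-fold higher in replicate 2, with a log2 ratio of 0.67 (exact 95% interval 0.60 to 0.74, adjusted p = 4.55e-84, exact binomial test). Mir146b had a log2 ratio of 2.00 (interval 0.96 to 3.17, adjusted p = 5.13e-05, exact binomial test), which rests on 46 reads in all. The intervals of the pair do not overlap, and the difference between their ratios was not tested. Mir150 had a log2 ratio of -0.30 (interval -0.36 to -0.24, adjusted p = 8.59e-22, exact binomial test) and Mir155 one of -0.31 (interval -0.49 to -0.13, adjusted p = 0.00112, exact binomial test). Mir142 did not pass, with a log2 ratio of 0.14 (interval -0.02 to 0.30, adjusted p = 0.119, exact binomial test). When the libraries were scaled by TMM factors it did pass, at 0.19 (adjusted p = 0.0311, exact binomial test). Mir223 did not pass either, at 0.21 (interval -0.40 to 0.83, adjusted p = 0.643, exact binomial test), and at its depth a change of up to 0.83 on the log2 scale would lie within the interval.

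The median detected gene was 1.29-fold apart between the libraries, and the median of the 6 immune microRNAs was 1.23-fold. Mir142 (1.10-fold), Mir223 (1.16-fold), Mir150 (1.23-fold) and Mir155 (1.24-fold) were closer than the median detected gene. Mir146 was wider apart than 75.1% of detected genes and Mir146b, at 4.00-fold, wider than 97.6%. Only the miR-146 pair was thus wider apart than the median detected gene.

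**Figure D3:**
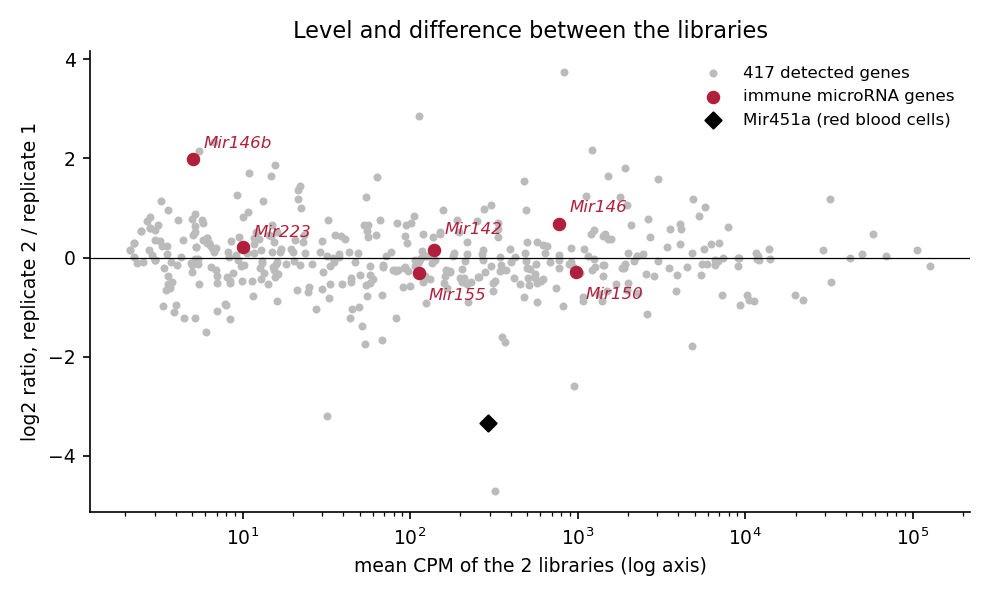
Log2 ratio of replicate 2 to replicate 1 against the mean CPM (log axis) of the 417 detected genes (grey), with the 6 detected immune microRNA genes in red and the red blood cell gene Mir451a as a black diamond. Of the red points, 5 lie between -0.31 and 0.67 and Mir146b lies at 2.00, while Mir451a lies at -3.34.

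Brain tissue can hold residual blood, and the microRNAs of red blood cells were therefore read beside the immune ones. Mir451a, which red blood cells and their precursors make in large amounts, had 2610 reads (529 CPM) in replicate 1 and 232 reads (52.2 CPM) in replicate 2. Its log2 ratio was -3.34 (exact 95% interval -3.54 to -3.15). Mir144 of the same locus had 285 and 28 reads. Mir486, the list's other gene with a match in the table, went the other way, with 74 and 133 reads. The list's summed level was 602 CPM in replicate 1 but 88.5 CPM in replicate 2, which is 6.81-fold lower, with 3 of 3 genes detected and none at 0. No detected immune microRNA fell as far, and the lowest bound of the 6 intervals was -0.49, for Mir155. Mir150 had 2.03 reads for each read of Mir451a in replicate 1 and 16.7 in replicate 2, and Mir142 had 0.249 and 2.78. What share of the immune microRNA reads came from blood was not tested.

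Vessel and brain cell microRNAs gave further reference points. The endothelial Mir126a stood at 13131 and 14813 CPM, 6.78 and 7.10 times the sum of all 7 immune genes in replicates 1 and 2. The neuronal list of 11 genes had a summed level of 36945 and 21529 CPM, with 7 of its 9 detected genes lower and 1 higher in replicate 2, against 34.5% lower and 24.7% higher over all detected genes. Reads mapping to several places are in none of the list sums, so genes with near-identical copies can be undercounted. Of the Mir124a genes in the neuronal list, which lie at separate loci, only Mir124a-1 was detected, at 21 and 12 reads. The astroglial list summed to 40427 and 30592 CPM, with 2 of 4 genes higher and 2 lower, and the oligodendrocyte list to 3393 and 5622 CPM, with 2 of 3 genes higher. The choroid plexus and ependyma list summed to 2132 and 1628 CPM, with 5 of 8 detected genes lower and 2 higher. The vessel list summed to 20418 and 21812 CPM, with 2 of 3 detected genes higher and 1 lower. Of lists for tissues outside the brain, that for liver summed to 81.1 and 64.4 CPM and that for muscle to 35.5 and 46.8 CPM. Mir122 of the liver list, at 69.0 and 50.9 CPM, and Mir206 of the muscle list, at 35.5 and 45.9 CPM, were above Mir223 and Mir146b in both libraries. Mir206 was the only 1 of the 5 muscle genes that was detected, and 3 of the 5 had no read in either library. Of the liver list, 2 of 2 genes were detected. Of the immune genes, Mir150 and Mir155 were lower and Mir146 and Mir146b higher in replicate 2, and the part of these lists in those ratios was not tested.

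**Figure D4:**
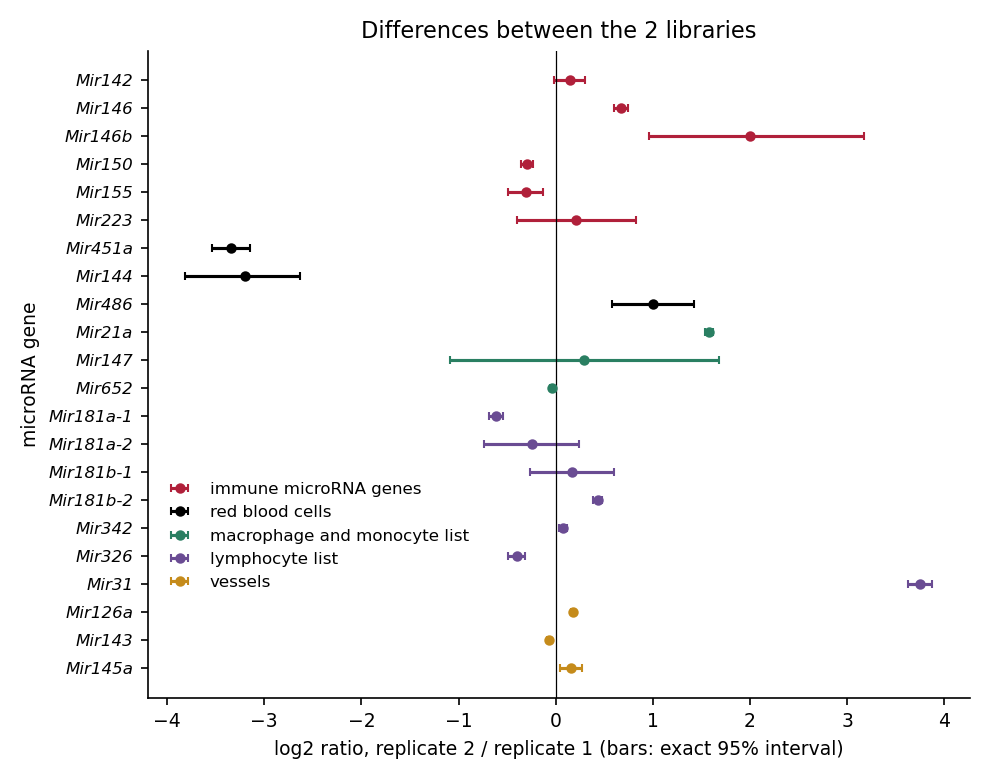
Log2 ratio of replicate 2 to replicate 1 with exact 95% intervals for the detected genes of 5 groups, namely the immune microRNA genes, red blood cells, the macrophage and monocyte list, the lymphocyte list and vessels. Mir451a and Mir144 lie near -3, whereas Mir486 of the same group lies at 1.00. The immune genes other than Mir146b lie within 1 unit of 0, as do the vessel genes. In the macrophage and lymphocyte lists Mir21a lies at 1.58 and Mir31 at 3.75, with the rest within 1 unit of 0.

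Other microRNAs tied to immune cells and their signalling, many of them also made in brain cells, were read from 3 lists. Their counts of genes past the threshold stand beside the 24.7% of all detected genes that were higher in replicate 2 and the 34.5% that were lower. In the macrophage and monocyte list 3 of 4 genes were detected. Mir21a, which is induced in many injured and inflamed tissues, was higher in replicate 2, at 1518 CPM in replicate 1 and 4526 CPM in replicate 2 (log2 ratio 1.58, interval 1.54 to 1.61). Mir652 was lower, at 11934 and 11621 CPM, and Mir147 had 10 and 11 reads and did not pass. Mir511, of the mannose receptor gene of macrophages, had 0 and 7 reads and was not detected. All 7 genes of the lymphocyte list were detected, 3 higher in replicate 2, 2 lower and 2 not past the threshold. The summed level of the list was 5218 CPM in replicate 1 and 6753 CPM in replicate 2, and most of that rise lay in Mir31. Mir150 was lower in replicate 2, as were 2 genes of the list. The list was led by Mir342 (2449 ± 91.4 CPM, n = 2) and Mir181b-2 (1424 ± 298 CPM, n = 2), ahead of Mir31, which had 115 CPM in replicate 1 and 1551 CPM in replicate 2 (log2 ratio 3.75, interval 3.63 to 3.88). The Mir181 genes have near-identical copies, and reads mapping to several places are not in their counts.

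The list of responders to and regulators of Toll-like receptor and NF-kB signalling, the pathway that induces Mir146 and Mir155, had 12 of 12 genes detected. Of these, 6 were higher in replicate 2, 3 were lower and 3 did not pass, with a median log2 ratio of 0.23 against -0.05 over all detected genes. The list was chosen with earlier results of these data known, so its counts and median are no test of the pathway. Its most abundant genes were Mir132, Mirlet7e (29123 ± 2260 CPM, n = 2) and Mir125a (9193 ± 44.2 CPM, n = 2). At least 2-fold apart were Mir132 (19682 and 44698 CPM), Mir221 (3842 and 7748 CPM), Mir222 (737 and 2310 CPM) and, lower in replicate 2, Mir99b (7459 and 2162 CPM). Of the immune genes tied to the pathway above, Mir146 and Mir146b were higher in replicate 2 and Mir155 lower.

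By level alone, each immune microRNA had close neighbours among the detected genes, measured as the Euclidean distance of log2(CPM + 1) over the 2 libraries. For Mir150 these were Mir667 (distance 0.0998) and Mir337 (0.124), and for Mir146 they were Mir15a (0.416) and Mir540 (0.445). Mir495 (0.141) and Mir203 (0.174) were nearest to Mir142, and Mir325 (0.0285) and Mir130b (0.140) to Mir155. Mir223 was nearest to Mir3074-1 (0.138) and Mir7688 (0.181), and Mir146b to Mir5620 (0.136) and Mir669e (0.439). A likeness over 2 libraries describes level and says little about pattern.

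Mir142 was counted only where strand was used. On the sense strand Mir142 had 649 and 646 reads, and in the column without regard to strand it had 0 in both libraries. Mir142b, on the opposite strand, had 0 sense reads, so that a level of up to 3 reads, 0.609 CPM in replicate 1 or 0.675 CPM in replicate 2, could have been missed. In the opposite-strand column Mir142b had 649 and 646 reads, the same numbers as the sense reads of Mir142. Mir142 was therefore at least 216-fold above Mir142b in replicate 1 and at least 215-fold in replicate 2, with the floor of 3 reads taken per library. MiR-142b, as printed above, is the reverse complement of positions 4 to 23 of miR-142a-3p. The other genes lost no reads in the column without regard to strand, and Mir150 gained 2 in each library from its opposite strand.

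**Figure D5:**
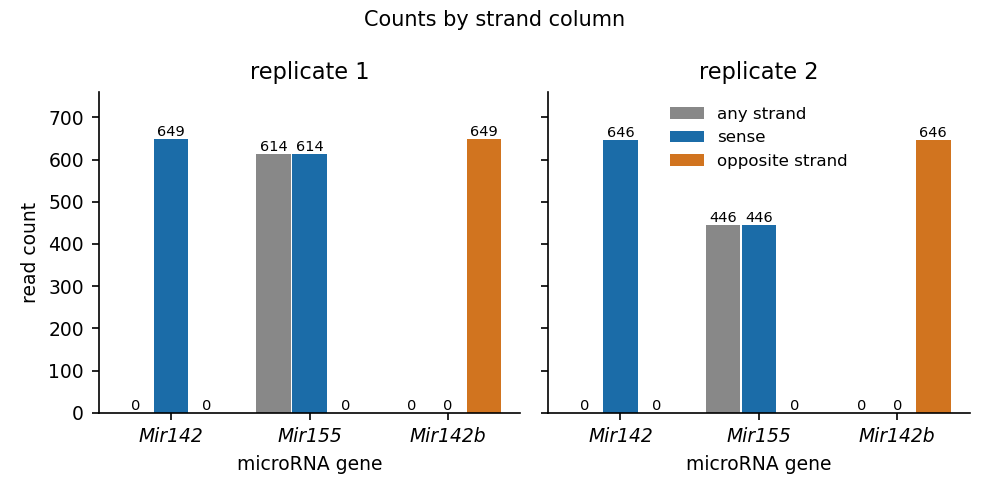
Read counts of Mir142, Mir155 and Mir142b in the columns for any strand (grey), the sense strand (blue) and the opposite strand (orange), in each library. The 649 and 646 sense reads of Mir142 reappear as opposite-strand reads of Mir142b and are missing from the column for any strand, whereas Mir155 has 614 and 446 reads in both of its columns.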

How the data were processed

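The values are raw read counts per microRNA gene, deposited as 1 table per library with 3 count columns (any strand, sense, opposite strand, inferred from the layout) and 4 lines of unassigned reads, which were left out. The assembly mm10 and annotation GENCODE M21 are given per the file headers in the notes deposited beside the tables. The sources used here do not give the aligner or counter. Multi-mapping reads form a total of their own outside the gene counts. All 2202 identifiers matched GENCODE M21. The sense column was scaled to CPM. Libraries were compared with exact binomial tests (SciPy 1.17.1) and Benjamini-Hochberg adjustment (statsmodels 0.14.6). The comparison was also run on simulated counts with counting error alone. That is the error the test assumes, so the run does not show how the test behaves with the spread between samples. With 1 group, edgeR's quasi-likelihood test could not be run. Alternatives were TMM (edgeR 4.0.16), DESeq2 1.42.0 size factors, all reads as the total, the column for any strand, detection at 1 or 100 counts, precursor length and each library alone. The text names all 7 genes and the 2 nearest genes by level of each detected one. Of each immune list it names the 3 most abundant genes and those at least 2-fold apart. The reference lists are given as sums, and Mir144, Mir486, Mir147, Mir511 and Mir652 complete the short lists. Mir124a-1, Mir122 and Mir206 were named after their values were seen. Genes and lists were chosen with earlier results of these data known.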

Additional observations from a re-analysis of the deposited data

Results flagged for a closer look

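Mir142b had no sense read, but its opposite-strand column, which its level does not use, held 649 reads in replicate 1 and 646 in replicate 2. The numbers equal the sense reads of Mir142, which lies wholly inside Mir142b on the other strand. They are thus no separate signal of Mir142b, and the level of Mir142 already holds them.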

How the results depend on the processing

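Of 23 alternative values of the log2 ratios of single genes, 21 kept their direction and their side of the threshold. The exceptions were both at Mir142, which passed at 0.19 under TMM factors and turned to -0.057 (adjusted p = 0.579, exact binomial test) when scaled to all reads in the table. That scaling moved the median log2 ratio of all detected genes from -0.05 to -0.25, and its calls were 73 higher and 197 lower in replicate 2, against 103 and 144. As a percentage of all reads in the table the immune genes took 0.0564 ± 0.00256% (SD, n = 2), since unassigned reads enter the total. That share was lower in replicate 2, whereas the share of assigned reads was higher there. In either library alone their share of assigned reads was 0.194% or 0.209%. The count of detected immune genes was 5 in the column for any strand, which lacks Mir142, and 4 at a minimum of 100 reads. The immune genes that passed the comparison of the libraries numbered between 3 and 5. At a minimum of 100 reads 3 of 4 passed, beside 80.7% of all genes tested there. Under TMM factors 5 of 6 passed, beside 59.2% of all. In each other setting 4 passed, beside 43.5% to 64.7% of all genes tested. No paired analysis was possible because there is only 1 group. Depth limits Mir223 and Mir146b, with 48 reads or fewer in each library.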

Other observations

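The proportion of Mir142 to other genes depended on the gene it was set against, and the genes shown were chosen after the values were seen. Mir142 had 14.1 reads for each read of Mir223 in replicate 1 and 13.5 in replicate 2, and 10.0 and 9.82 reads for each 1000 reads of the endothelial Mir126a. Against Mir132 it went from 6.69 to 3.25 reads for each 1000 reads, and against Mir451a from 249 to 2784. Mir223 had 0.711 and 0.730 reads for each 1000 of Mir126a. Mir155 went from 9.49 to 6.78 and Mir150 from 81.7 to 59.0 on the same measure, and Mir146 from 45.4 to 64.1. With 2 libraries these proportions have no test.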
